A study of Mus musculus with 4 samples.

Results

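The replication-dependent histone genes code for the H1, H2A, H2B, H3 and H4 proteins that package newly made DNA. They were chosen by symbol, as the protein-coding genes of GENCODE M1 on mm9 that begin with Hist1h, Hist2h, Hist3h or Hist4h, which gave 67 of the 22380 protein-coding genes and of the 37310 genes annotated in all. A further 3 pseudogenes carry such symbols (Hist1h2aj, Hist2h3c2 and Hist3h2bb-ps) and were not counted as members. The study mapped Myc and its partner Max on chromatin of E14 mouse embryonic stem cells (ESCs) by ChIP-Seq, in 4 libraries, and the deposited peak lists of the Bio-Myc and Max ChIPs were used here. Bio-Myc is Myc with an N-terminal tag that the bacterial ligase BirA biotinylates inside the cell. It was expressed from the EF1α promoter in a stable clone of E14 ESCs, pulled down with streptavidin Dynabeads and called against a mock ChIP with the same beads. The labels give the mock cells as wild-type parental ESCs, whereas the methods describe BirA-ES cells with no tagged protein. Max was precipitated with an anti-Max antibody from wild-type parental ESCs and called against an IgG ChIP from the same parental cells. All of these cells were grown in serum and LIF. The mock and IgG libraries entered only through the authors' peak calls. Each ChIP is 1 library, the Bio-Myc line is a single clone, and the number of reads is unknown, so no count below has an error between cultures. The 95% Wilson intervals given with shares cover counting error only, and neighbouring genes that share a peak are not independent. A peak list holds no expression values, so the cells could not be checked against ESC markers.

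Most histone genes of this class lie in clusters, have no introns and are transcribed in bursts when cells copy their DNA. NPAT, a substrate of cyclin E with CDK2, drives their transcription, and their mRNAs end in a stem-loop that the protein SLBP binds, not in a poly(A) tail. Myc and Max are basic helix-loop-helix leucine zipper proteins that bind as a dimer to the E-Box CACGTG, and Max also pairs with other partners. ESCs divide fast and spend much of their cycle in S phase.

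No histone gene had a Bio-Myc peak within 1 kb of a TSS. The count was 0 of 67 (95% interval 0 to 5.42%), where 3275 of the 22380 protein-coding genes (14.6%) had such a peak. Max peaks lay at 7 of the 67 genes (10.4%, 5.15 to 20%), where 34.8% of the protein-coding genes had a Max peak. These 7 genes shared 5 peaks, because 2 of the peaks each reached a pair of neighbouring genes. Peaks of both ChIPs occurred at 12.7% of the protein-coding genes and at 0 of the 67 histone genes. The remaining 60 histone genes (89.6%) had neither, as did 63.2% of the protein-coding genes.

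Max peaks lay at a few genes of the H4, H2A and H2B families. The counts were 3 of 13 H4 genes (Hist4h4, Hist2h4 and Hist1h4h), 2 of 19 H2A genes (Hist1h2aa and Hist1h2ah) and 2 of 18 H2B genes (Hist1h2ba and Hist1h2bk). None of the 11 H3 genes and none of the 6 H1 genes had a peak of either ChIP. By cluster, the bound genes were 5 of 55 in Hist1, 1 of 9 in Hist2, 0 of 2 in Hist3 and the single gene of Hist4. The intervals of the families overlapped widely (8.18 to 50.3% for H4 and 0 to 25.9% for H3), so the families could not be ordered.

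**Figure D1:**
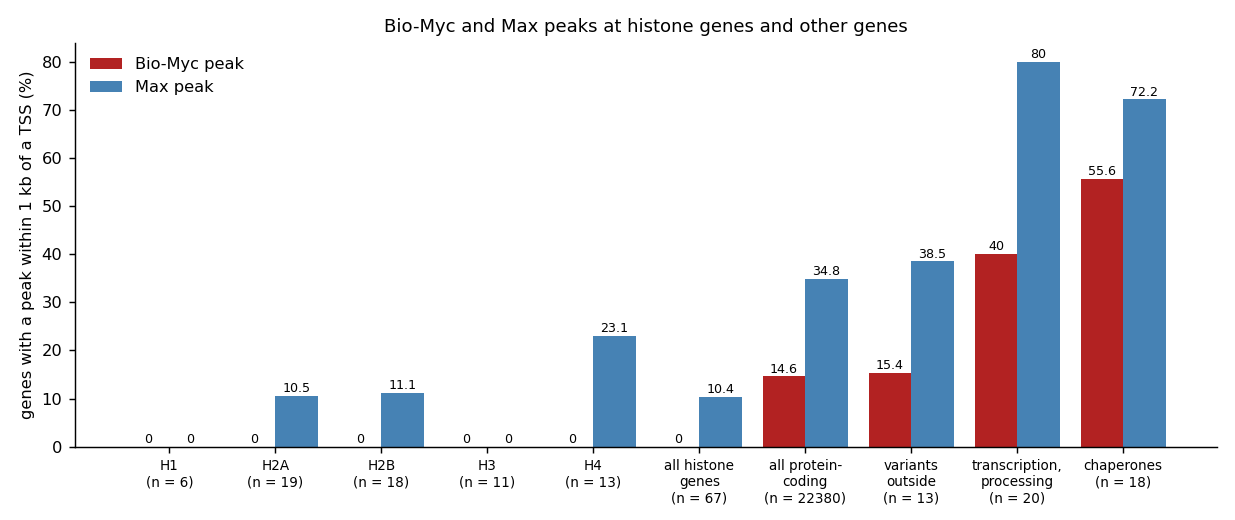
Percent of genes with a Bio-Myc peak (red) or a Max peak (blue) within 1 kb of a TSS, for the 5 histone families, all 67 histone genes, all 22380 protein-coding genes and 3 lists of related genes. The red bars of the histone families are all at 0, and the blue bar of all histone genes is at 10.4% against 34.8% over protein-coding genes.

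The promoters of 2 head-to-head pairs with a Max peak are shown with that of an unbound pair and with the upstream sequence of Hist4h4, the H4 gene with the highest-scoring peak. Each sequence is mm9. The pair promoters run between the TSSs on the plus strand, at chr13:24026029-24026328 for Hist1h2ba/Hist1h2aa (the central 300 bases), chr13:22127513-22127689 for Hist1h2ah/Hist1h2bk and chr13:23775818-23776067 for the unbound Hist1h2ac/Hist1h2bc. The 200 bases before the TSS of Hist4h4 (chr6:136752901-136753100) are on the minus strand, the strand of the gene. The annotated TSSs of Hist4h4, Hist1h2ba and Hist1h2aa are their first coding bases, so the sequences shown before them may include transcribed leader. Capitals mark the octamer ATTTGCAT, the CCAAT box and TATAAA, in either orientation (ATGCAAAT, ATTGG and TTTATA on the other strand), and CACGTG, which none of the 4 holds.
Hist1h2ba/Hist1h2aa: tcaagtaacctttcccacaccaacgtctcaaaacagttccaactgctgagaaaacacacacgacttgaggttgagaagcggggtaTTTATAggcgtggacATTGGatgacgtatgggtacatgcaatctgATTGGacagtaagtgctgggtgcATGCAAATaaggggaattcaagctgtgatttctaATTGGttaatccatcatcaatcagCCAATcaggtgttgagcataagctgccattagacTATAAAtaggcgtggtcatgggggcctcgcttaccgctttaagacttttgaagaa
Hist1h2ah/Hist1h2bk: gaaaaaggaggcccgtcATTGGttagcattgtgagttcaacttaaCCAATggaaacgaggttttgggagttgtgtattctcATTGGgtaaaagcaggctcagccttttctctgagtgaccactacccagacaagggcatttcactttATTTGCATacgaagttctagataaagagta
Hist1h2ac/Hist1h2bc: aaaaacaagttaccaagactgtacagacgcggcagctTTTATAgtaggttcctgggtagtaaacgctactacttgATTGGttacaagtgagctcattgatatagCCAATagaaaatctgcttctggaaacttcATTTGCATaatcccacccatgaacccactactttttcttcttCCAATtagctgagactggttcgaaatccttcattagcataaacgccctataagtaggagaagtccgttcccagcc
Hist4h4: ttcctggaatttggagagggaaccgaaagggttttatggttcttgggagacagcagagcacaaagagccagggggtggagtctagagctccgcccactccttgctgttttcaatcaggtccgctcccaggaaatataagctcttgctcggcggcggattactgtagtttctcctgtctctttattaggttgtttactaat

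The Max peaks at these genes held CACGTG at 3 places. They are shown as 30 bases of the plus strand with the E-Box in capitals, at chr13:22126902-22126931 near Hist1h2ah and Hist1h2bk, chr3:96066177-96066206 near Hist2h4 and chr6:136752098-136752127 near Hist4h4. They lie past the coding sequence of Hist1h2ah, Hist2h4 and Hist4h4, the first of them 774 bp upstream of the Hist1h2bk TSS, and none is in the promoters printed above.
Hist1h2ah/Hist1h2bk E-Box: cagcttactcacCACGTGgttggaattagt
Hist2h4 E-Box: actgtgtcccacCACGTGtctctttaaatc
Hist4h4 E-Box: ttcccccaaaccCACGTGcttaaggcagag

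The highest-scoring peak was at Hist4h4, an H4 gene that stands alone on chromosome 6. The score is the negative log10 of the p-value given by the peak caller MACS, times 10, and it is compared only within a list. The Max peak chr6:136751936-136753415 had a score of 391 and ranked 1506 of 11570, within the top 13% of the list. It was 1480 bp wide and covered the TSS and all 309 coding bases of the gene. The only E-Box in it lay 787 bp downstream of the TSS and 563 bp from the centre of the peak.

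Next to Hist4h4 lies H2afj, a replication-independent H2A variant gene, and the peaks of the 2 ChIPs were divided between these neighbours. H2afj had the Bio-Myc peak chr6:136755891-136757274 (score 134, rank 1897 of 3962), with 1 E-Box and its centre 187 bp upstream of the H2afj TSS. It had no Max peak within 1 kb. Hist4h4 had the Max peak and no Bio-Myc peak, and the peak of H2afj was the nearest Bio-Myc peak to any histone gene, 2.99 kb from the Hist4h4 TSS.

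The next score belonged to Hist1h2ba and Hist1h2aa, an H2B and an H2A gene known for their expression in testis, which lie head to head at the far end of the Hist1 cluster. Their annotated TSSs, which are also their first coding bases, are 306 bp apart, and the Max peak chr13:24025942-24026778 covered both. It had a score of 194 and ranked 4577 of 11570. It covered the whole coding sequence of Hist1h2aa and 84 of 381 coding bases of Hist1h2ba. It held no CACGTG and 1 CACGCG, a variant E-Box. The third gene of the testis group, Hist1h1t, which codes for a linker histone of male germ cells, had no peak, with the nearest Max peak 164 kb away.

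The remaining 3 Max peaks lay downstream of the TSS of the nearest histone gene and did not reach it. At Hist2h4, the peak chr3:96065779-96066599 (score 192, rank 4641) ran from 635 to 1455 bp past the TSS, inside the annotated transcript and outside the 309 coding bases, with an E-Box 2 bp from its centre. At Hist1h4h, the peak chr13:23623150-23623878 (score 136, rank 6946) ran from 231 to 959 bp past the TSS, covered 143 of 309 coding bases and held neither CACGTG nor CACGCG. At Hist1h2ah, the peak chr13:22126556-22127192 (score 105, rank 8985) ran from 320 to 956 bp past the TSS, covered 155 of 384 coding bases and held an E-Box 42 bp from its centre. The same peak came within the window of Hist1h2bk from its upstream side, with its nearest edge 498 bp from that TSS and outside the promoter that the pair shares. By the rule that the peak must cover a TSS, Max was thus counted at 3 genes (Hist4h4, Hist1h2ba and Hist1h2aa), or 4.48% of members against 30% of protein-coding genes. At all 3 the annotated TSS is the first coding base.

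**Figure D2:**
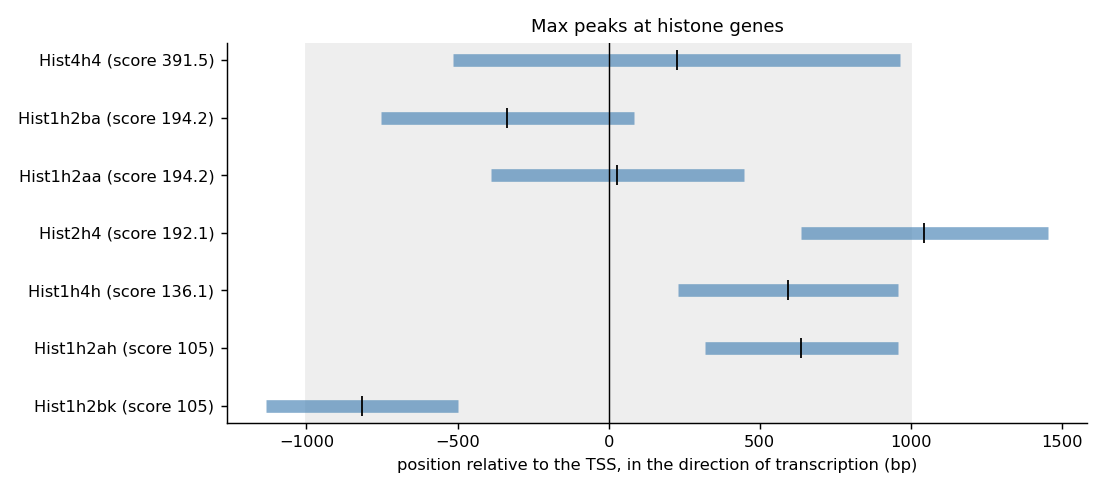
Extent of the 5 Max peaks at the 7 histone genes they reach, relative to each TSS and read in the direction of transcription, with the centre as a black tick and the 1-kb window in grey. The peaks at Hist4h4, Hist1h2ba and Hist1h2aa cross the TSS at 0, those at Hist2h4, Hist1h4h and Hist1h2ah lie downstream, and Hist1h2bk shares the peak of Hist1h2ah.

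In score and width these peaks lay near the middle of the Max list. Their median score was 192.1 against 181.2 for the 7569 Max peaks at protein-coding promoters, and their median width was 821 against 860 bp. An E-Box was present in 3 of 5 (60%) against 36.6%, and in the central 200 bp of 2 of 5 (40%) against 17.2%, which is too few peaks to call a difference. None of the 5 overlapped a Bio-Myc peak, where 32.5% of the Max peaks at protein-coding promoters did. This adds nothing to the Bio-Myc count at these genes. The 5 peaks reached no more than 1455 bp from the TSS, and the nearest Bio-Myc peak to any member was 2991 bp away.

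Most of the members sit in 2 blocks of chromosome 13, where genes of all 5 families alternate on both strands. The proximal block holds 23 genes over 328 kb (chr13:21807632-22135545) and the distal block holds 31 genes over 404 kb (chr13:23622919-24026720). The first 18 genes of the proximal block, from Hist1h2bl to Hist1h2br, had no peak, and their nearest Max peaks lay between 62.9 and 181 kb away. These 18 include 6 genes, named below, whose 250 bases upstream hold no 32-base stretch found once in mm9. No statement on binding is made for these 6. The distal block had Max peaks only at its ends, at Hist1h4h and at Hist1h2ba/Hist1h2aa, with 28 genes between them and no peak of either ChIP in that stretch. The nearest Bio-Myc peak to the distal block was 1480 to 1883 kb away, and that block lay in a stretch of 7.93 Mb with no Bio-Myc peak.

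**Figure D3:**
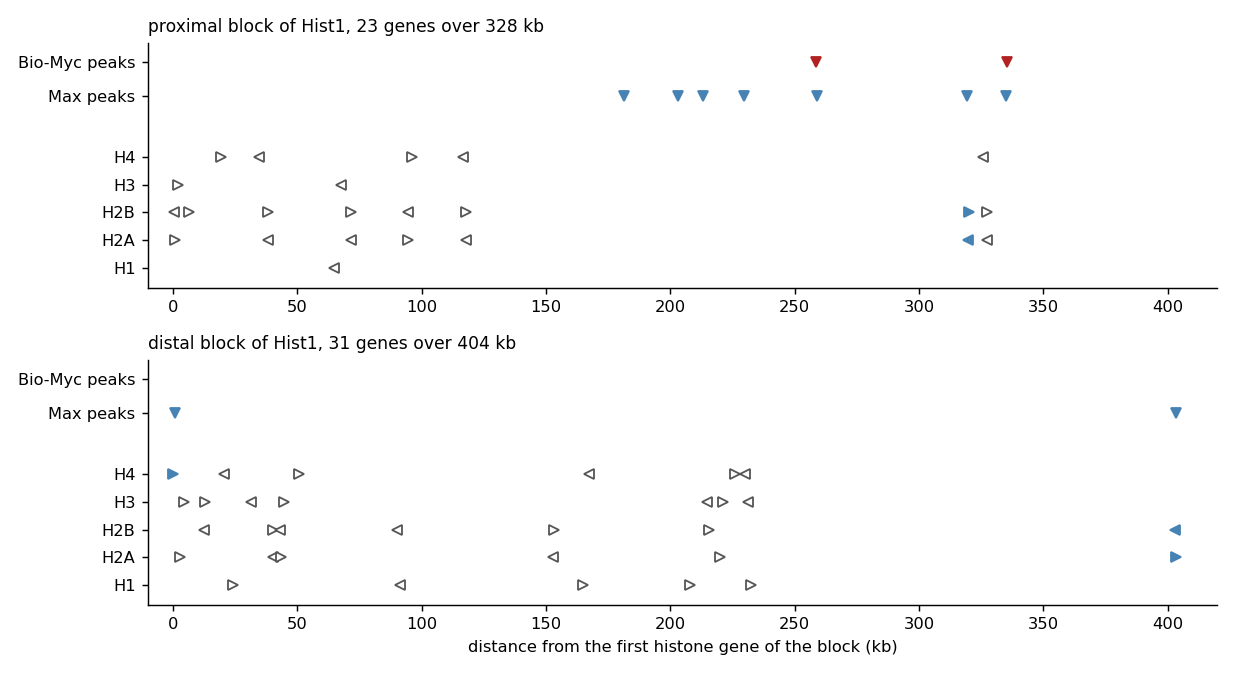
Histone genes of the 2 Hist1 blocks by family, as arrows in the direction of transcription, with the Max peaks (blue triangles) and Bio-Myc peaks (red triangles) above, by distance from the first histone gene of each block in kb. Filled arrows are genes with a Max peak within 1 kb, which are 2 of 23 in the proximal block and 3 of 31 in the distal block, and the distal block has no Bio-Myc peak.

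Few of the other protein-coding genes of this stretch of chromosome 13, which lie within and between the blocks, had a peak. From the first to the last gene of both blocks, 2.22 Mb held 2 Bio-Myc and 16 Max peaks, and 48 other protein-coding genes. None of the 48 had a Bio-Myc peak, against 14.6% of all protein-coding genes, and 4 (8.33% against 34.8%) had a Max peak. These 4 were the zinc finger genes Zfp184 (score 204) and Zfp322a (124), Abt1 (129), which codes for a nuclear protein, and Btn2a2 (198), a butyrophilin. Vomeronasal receptor genes, which serve pheromone sensing, made up 33 of the 48 and had no peak. Of the other 15 genes, 4 (26.7%, interval 10.9 to 52%) had a Max peak and 0 (0 to 20.4%) a Bio-Myc peak. These intervals include the shares of all protein-coding genes, 34.8% for Max and 14.6% for Bio-Myc. A lower share was thus not shown for these 15 genes. Both Bio-Myc peaks of the stretch overlapped a Max peak. The one closer to histone genes was chr13:22142260-22143390 (score 84.1), which overlapped the Max peak chr13:22142192-22143304 (score 359). Both held an E-Box, and they lay 7.18 kb (Bio-Myc) and 7.11 kb (Max) from the TSS of Hist1h2bj, the last gene of the proximal block.

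Outside these blocks, the members had few peaks nearby. The Hist2 cluster on chromosome 3 holds 9 genes over 59.1 kb and had Max peaks at Hist2h4 and inside the long transcript of Hist2h2bb, where chr3:96081503-96082611 (score 219) was centred 8.41 kb past the TSS. Its other members, Hist2h2ab, Hist2h2ac, Hist2h2be, Hist2h2aa1, Hist2h2aa2, Hist2h3c1 and Hist2h3b, lay 5.98 to 23.2 kb from a Max peak and 22 to 70.8 kb from a Bio-Myc peak. On chromosome 11, the Hist3 genes Hist3h2ba and Hist3h2a lay 9.64 and 6.96 kb from a Max peak. Hist1h2al, which is on chromosome 13 but apart from the cluster, lay 102 kb from a Max peak and 392 kb from a Bio-Myc peak.

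The linker histone genes, whose products bind DNA between nucleosomes, lay 23 kb or more from a Max peak. The nearest Max peak was 23 kb from Hist1h1d, 90.5 kb from Hist1h1e, 116 kb from Hist1h1b, 164 kb from Hist1h1t, 170 kb from Hist1h1a and 195 kb from Hist1h1c. The last of these was the largest distance to a Max peak among the 67 members. Members of other families in the same block lay about as far, among them Hist1h3c at 188 kb and Hist1h2bb at 187 kb. The distance of Hist1h1d was near the median of all protein-coding genes (22.1 kb).

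Over all members, Bio-Myc peaks lay at a median distance of 224 kb, against 113 kb for protein-coding genes on chromosomes with such a peak. The corresponding values for Max were 62.9 and 22.1 kb. Within 5 kb of a TSS there was a Bio-Myc peak for 1 member (1.49% against 16.6%) and a Max peak for 9 (13.4% against 38.6%). The 2 genes that this wider window added for Max were Hist1h2af and Hist1h3g, at 1.9 and 3.41 kb from the peak of Hist1h4h.

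**Figure D4:**
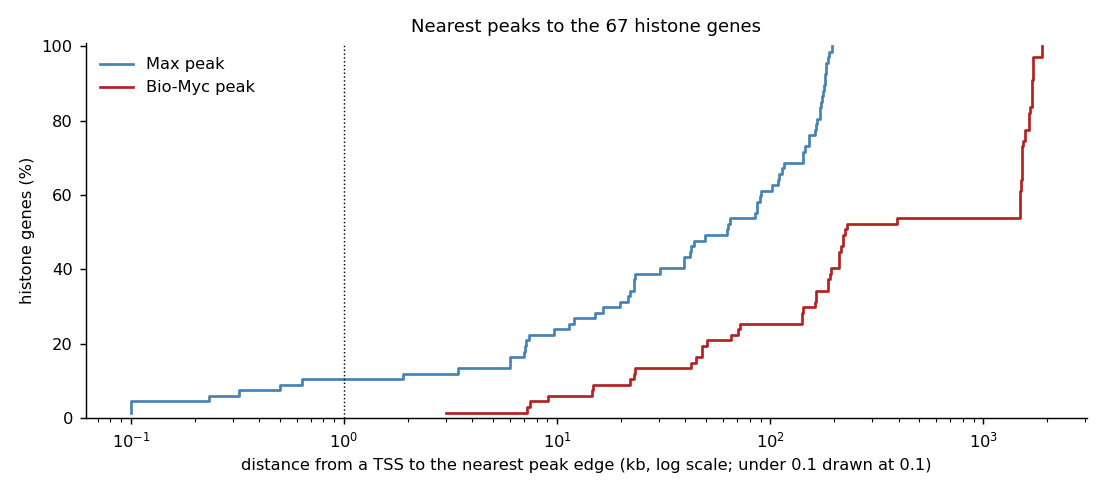
Cumulative percent of the 67 histone genes by distance from a TSS to the nearest edge of a Max peak (blue) or a Bio-Myc peak (red), in kb on a log scale, with the 1-kb limit dotted. The blue line passes the limit at 10.4% and the red line begins at 2.99 kb, and the last steps of the red line near 1480 to 1883 kb are the distal Hist1 block.

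H2A and H2B genes mostly share promoters. There were 13 head-to-head pairs with TSSs within 1 kb, 12 of an H2A with an H2B gene and the pair Hist1h2bh/Hist1h3f, with gaps of 168 to 693 bp (median 241). A Max peak reached 2 of the 13 pairs, and a Bio-Myc peak none. The promoters of Hist1h2bq/Hist1h2ao and Hist1h2ap/Hist1h2br hold no 32-base stretch found once in mm9, and no statement on binding is made for these pairs. Of the 26 paired genes 4 (15.4%) had a Max peak, and of the 41 other members 3 (7.32%), with overlapping intervals (6.15 to 33.5% and 2.52 to 19.4%).

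The motifs of classical histone promoters were frequent, and the E-Box was absent. In the 300 bases from 250 before to 50 after the TSS, the E-Box CACGTG was in 0 of 67, against 7.78% of all protein-coding genes and 16.6% of those with a Bio-Myc peak. The octamer ATTTGCAT, the site of the POU factor OCT1 and a known element of H2B promoters, was in 15 (22.4% against 1.72%), namely in 8 of 18 H2B genes and 7 of 19 H2A genes and in no other family. CCAAT, the site of NF-Y, was in 57 (85.1% against 37.9%), which included all H1, H2A and H2B genes, 10 of 11 H3 genes and 4 of 13 H4 genes. TATAAA was in 38 (56.7% against 13.4%). The median GC content was 46% against 55%. Motifs were searched on both strands, and a match is only a match of letters. A site between the TSSs of a head-to-head pair can therefore count for both genes, so these gene counts exceed the number of separate sites.

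Promoters with TATAAA had fewer peaks across the genome. Of the 2 ChIPs, Bio-Myc had a peak at 6.15% and Max at 16.1% of the 3007 protein-coding genes with TATAAA in this region. Among the 38 histone genes with it the counts were 0 and 4 (10.5%). For the octamer, 9.84 and 23.1% of 386 protein-coding genes had the peaks, and 0 and 4 of the 15 histone genes with it. Those 4 were the genes of 2 head-to-head pairs, and the genes of each pair shared their octamer and their Max peak.

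Within the full 1 kb, an E-Box was near 7 histone genes (10.4% against 27.8%). These were Hist4h4, Hist1h2ah and Hist1h2bk, whose E-Box was in a Max peak, and Hist1h4m, Hist1h4n, Hist1h1d and Hist1h3d, whose E-Box was in no peak. Hist1h4m and Hist1h4n are mirrored copies, and only 4.21 and 4.26% of the 32-base stretches of their windows occur once in mm9. No statement on binding is made for them. Over all protein-coding genes with CACGTG in this window, Bio-Myc peaks were at 26.2% and Max peaks at 52.2%. The variant CACGCG was common near histone genes, at 42 of 67 (62.7% against 33.2%), and 48 of its 63 sites (76.2%) lay in histone coding sequence. A Bio-Myc peak was at 26.6% of all protein-coding genes with CACGCG in the window, and at 0 of these 42.

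Histone genes are alike in sequence, and the authors kept only reads that map to a single place. The share of 32-base stretches of the 1-kb window that occur once in mm9 had a median of 74.8% over the 67 members, against 98.4% over protein-coding genes, and of 80.7% against 100% for 50-base stretches. The read length is not given in the sources used here. The windows of H2A and H2B genes were the least unique (medians 66.2 and 67%) and those of H1 genes the most (95%). The 250 bases upstream of the TSS were unique throughout in 53 of 67 members (79.1%), much as in protein-coding genes (79.6%).

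In 9 members less than 15% of the upstream bases were unique, and none of them had a peak. Those at 0 were Hist1h2bq, Hist1h2ao, Hist1h4m, Hist1h4n, Hist1h2ap and Hist1h2br, 2 mirrored copies of an H2B, H2A and H4 gene. The others were Hist2h2aa1, Hist2h2aa2 and Hist2h3c1. Among the 1004 protein-coding genes of this kind, Bio-Myc peaks were called at 4 and Max peaks at 21, and no statement on binding is made for these 9.

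The counts were repeated for members with more unique sequence, where the Bio-Myc count could only be 0, as it was 0 over all members. With upstream sequence unique throughout, 0 of 53 histone genes had a Bio-Myc peak, against 16.8% of such protein-coding genes, and 7 (13.2%) had a Max peak, against 40.3%. The 1-kb windows of these 53 genes were still less unique, with a median of 79.2% against 99.3% for such protein-coding genes. With at least 80% of the 1-kb window unique, the counts were 0 of 27 (against 16.7%) and 5 (18.5% against 39.7%). The windows of the 6 H1 genes were 89 to 100% unique, with no peak of either ChIP. The part of mapping in the Bio-Myc and Max counts was not tested beyond these counts.

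**Figure D5:**
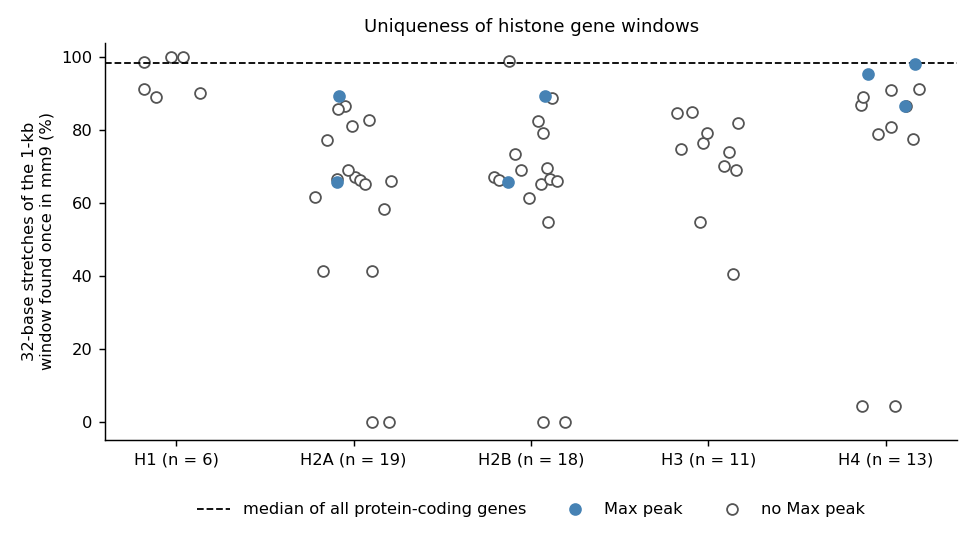
Percent of 32-base stretches in the 1-kb window that occur once in mm9, 1 point per histone gene by family, with genes that have a Max peak filled and the median of all protein-coding genes (98.4%) as a dashed line. The Max-bound genes lie between 65.7 and 98.1%, and 2 H2A, 2 H2B and 2 H4 genes lie at or near 0.

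Among genes that serve the histone genes and their products, the shares with peaks were above those of all protein-coding genes. The paper reports that Bio-Myc was found more often at promoters of genes with high mRNA levels. The genes listed here were not matched to the protein-coding genes for expression. The part of expression in these higher shares was not tested. Of 20 genes for factors of histone transcription and mRNA processing, Bio-Myc peaks were found at 8 (40% against 14.6% of all protein-coding genes), Max peaks at 16 (80% against 34.8%) and both at 8 (40% against 12.7%). The 8 were Npat (scores 275 for Bio-Myc and 276 for Max), Slbp (112 and 215), Ccne1 (119 and 251) and Ccne2 (277 and 1580), which code for cyclin E, Pou2f1, which codes for OCT1 (100.01 and 464), E2f4 (85.4 and 133), the exonuclease gene Eri1 (117 and 620) and Srrt (242 and 95.8). Each score is that of the highest-scoring peak of its ChIP at the gene, and at Ccne1 the peaks with these scores did not overlap. Of the peaks with these scores, only those of Ccne2 held CACGTG, in both ChIPs. The Ccne2 promoter held the highest Max score of this list, within the top 0.415% of the Max peaks.

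Of 18 histone chaperone genes, Bio-Myc peaks were found at 10 (55.6% against 14.6% of all protein-coding genes) and Max peaks at 13 (72.2% against 34.8%). Both were present at 9 (50% against 12.7%). These were Npm1 (scores 614 for Bio-Myc and 1256 for Max), Nasp (419 and 206), Set (301 and 599), the FACT genes Ssrp1 (291 and 207) and Supt16h (117 and 207), Hat1 (223 and 274), Rbbp4 (206 and 326), Hira (165 and 268) and Chaf1b (96.5 and 114), a subunit of the assembly factor CAF-1. At Hat1 and Hira the peaks with these scores did not overlap. Atrx had a Bio-Myc peak alone (85.4).

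The histone variant genes outside the clusters stood near the share of all genes. Bio-Myc peaks were at 2 of 13 (15.4% against 14.6%), H2afx and H2afj, and Max peaks at 5 (38.5% against 34.8%). The 7 with neither (53.8% against 63.2%) were H1foo, H1fnt, Hils1, H2afy, H3f3a, H3f3b and Cenpa. H2afx, which codes for the H2A.X of DNA damage signalling, was the only variant gene with both (89.9 and 211), and the peaks with these scores did not overlap. These lists are short and were chosen with knowledge of the data, and no test was made of them.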

How the data were processed

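Of the 4 samples, the Bio-Myc and Max peak lists were used, 1 library each. The authors sequenced on an Illumina HiScanSQ, placed reads on mm9 with Bowtie 0.12.7, keeping those with a single match and no more than 2 mismatches, and removed duplicate reads. Peaks came from MACS 1.4.1, run against the mock or IgG ChIP at a p-value of 1e-08. The submitters' processing notes also name CASAVA 1.8. The deposited score of each peak is the negative log10 of that p-value times 10, and the lowest in either list is 80. The lists hold 3962 and 11570 peaks. Depth is unknown, and at a fixed p-value the number of peaks depends on it, so the lists were not compared by count or score.

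A peak was assigned to a gene if at least 1 bp of it lay no more than 1 kb from a GENCODE M1 TSS of that gene, and distinct peaks were counted beside genes. No test was made, since there are no replicates. Uniqueness was the share of 32-base or 50-base stretches found once on either strand of mm9. The windows for uniqueness and for promoter motifs were set around the outermost TSS of each gene, and those for peaks around every TSS. Of the members, 5 had more than 1 TSS. Members, gene lists and motifs were chosen with earlier results of these data known. Named genes were all members at the highest-scoring peaks, outside the Hist1 cluster, in the H1 family or known from testis, and the genes of the 3 related lists with both peaks. Other names, including the neighbours Zfp184, Zfp322a, Abt1 and Btn2a2, the genes Atrx and H2afj, and the sequences shown, were chosen after their values were seen. In GENCODE M1, H1f0 and H3f3c are pseudogenes and were left out of the variant list.

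Alternatives were other windows, the outermost TSS, peak centres, stricter p-value limits, any biotype, assignment to the nearest TSS and equal list sizes. After the data were seen, the counts were repeated without poorly unique members and without the testis genes. The tools were samtools 1.23.1 and Python 3.11.15 (numba 0.67.0, pysam 0.24.0, numpy 2.4.6, scipy 1.17.1 and matplotlib 3.10.9). The counting, motif and uniqueness steps were tested on simulated data, and 7 of 7 returned the known answer. Coordinates are 1-based.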

Additional observations from a re-analysis of the deposited data

How the results depend on the processing

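The Bio-Myc count at histone genes was 0 under 11 of the 13 alternatives. Most of these narrow the window, the peaks or the genes, so they could not raise a count of 0. Only the wider windows and the inclusion of any biotype could have raised it. With any biotype the Bio-Myc count stayed at 0. Within 5 kb of a TSS, and from 3 kb upstream to 2 kb downstream, it was 1, with 1 peak and with 1 gene that had both peaks. That gene was Hist4h4 with the peak of H2afj. The Max count of 7 genes and 5 peaks fell to 3 genes and 2 peaks where the peak had to cover a TSS, to 4 genes and 3 peaks at a p-value of 1e-15, and to 1 gene and 1 peak (Hist4h4) with as many Max peaks as Bio-Myc peaks. The Max share of members thus fell from 10.4% to 4.48, 5.97 and 1.49%, and that of all protein-coding genes from 34.8% to 30, 22.6 and 15.5%. Under the other settings, 5 to 9 genes and 4 or 5 peaks were counted. The alternatives added after the data were seen, with at least 80% of the window unique or without the testis genes, each gave 5 genes and 4 peaks for Max. The E-Box share of 60% ranged from 40 to 80% over the other ways of counting it, all within the interval that 5 peaks allow. As no Bio-Myc peak lay at a histone gene, the alternatives for its overlap with Max and for its E-Boxes could not be computed. Limits are the lack of replicates, the unknown depth and read length, and the 9 members whose upstream sequence is not unique.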
